A study of Mus musculus with 11 samples.

Results

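The cytosolic ribosomal protein genes were examined in mammary tumours of mice with and without extra SIRT6. Members were the genes whose annotated symbol begins with Rpl or Rps followed by a digit, together with Rpsa, Rplp0, Rplp1 and Rplp2, without the S6 kinases and without symbols of pseudogenes. The rule gave 65 of the 19057 genes with a named probe, 27 with small subunit symbols and 38 with large subunit symbols, measured by 96 probes. A gene with several probes was represented by its probe of highest mean. Of 95 symbols in the RefSeq gene table that meet the rule, 65 had a named probe. Among them, Rps19bp1 (a nucleolar protein that binds Rps19) and Rps23rg1 (a retrogene of Rps23) carry the naming pattern without being ribosomal proteins, and were counted as the rule has it.

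The tumours came from female mice aged 12 weeks. The 6 PyMT tumours came from mice with a mammary transgene for polyoma middle T, a viral oncogene, and the 5 PyMT/SIRT6 tumours from mice that carry the same transgene and, besides, the Sirt6BAC allele, an added Sirt6 gene on a bacterial artificial chromosome that overexpresses SIRT6 and is not described as limited to the mammary gland. Each tumour gave 1 Illumina bead array (Mouse WG-6 v2.0), and the array numbers used here follow the order of deposit and only name the arrays. The labels do not say whether the tumours came from different mice. A p-value here sets a difference against the spread between these samples, and it can be too small if tumours share a mouse. In bulk tumour fewer cells of a type and less RNA per cell cannot be told apart.

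The ribosome is built from a small and a large subunit, each a scaffold of ribosomal RNA with ribosomal proteins that are needed in matching amounts. Their mRNAs are among the most abundant of a growing cell, and many begin with a run of pyrimidines (the terminal oligopyrimidine motif) through which mTOR and Larp1 control their translation. MYC raises transcription of ribosomal protein genes and SIRT6, a deacylase of chromatin, is known to act as a co-repressor of MYC at such genes, so the design asks whether these genes differ when the extra Sirt6 allele is present.

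A feature that the naming rule did not use is the sequence at the start of transcription, and it is shown for a few members because a run of C and T there is the known link between these mRNAs and mTOR signalling. RefSeq windows on GRCm38.p6, from 250 bases before to 50 bases after the annotated start, were matched by gene for 54 of the 65 members. An unbroken run of at least 6 C or T within 10 bases of the start was found in 28 of the 54 members (51.9%), against 23.1% of 17492 protein-coding genes. Each sequence shows 30 bases before and 30 bases after the annotated start, 5′ to 3′ on the coding strand, and capitals mark the run over its whole unbroken length, which can reach beyond those 10 bases. Rps6 is the small subunit protein that the S6 kinases phosphorylate, Rpl12, Rpl13a and Rps10 are among the members that most closely followed the other members across arrays, Rpl7a and Rpl35 have long runs, and Rplp2 is a protein of the acidic stalk that recruits elongation factors.
Rps6 (chr4:86857338-86857397, minus strand): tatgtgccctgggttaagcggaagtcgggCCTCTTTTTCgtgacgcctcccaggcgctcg
Rpl12 (chr2:32961682-32961741, plus strand): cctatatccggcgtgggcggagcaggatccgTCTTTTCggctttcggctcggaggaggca
Rpl13a (chr7:45128716-45128775, minus strand): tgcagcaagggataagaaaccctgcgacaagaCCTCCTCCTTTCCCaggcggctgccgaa
Rps10 (chr17:27635215-27635274, minus strand): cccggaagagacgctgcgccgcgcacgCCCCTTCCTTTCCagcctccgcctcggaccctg
Rpl7a (chr2:26910777-26910836, plus strand): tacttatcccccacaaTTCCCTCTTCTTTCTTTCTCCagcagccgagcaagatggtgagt
Rpl35 (chr2:39005102-39005161, minus strand): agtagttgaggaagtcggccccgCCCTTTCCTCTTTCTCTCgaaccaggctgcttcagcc
Rplp2 (chr7:141447621-141447680, plus strand): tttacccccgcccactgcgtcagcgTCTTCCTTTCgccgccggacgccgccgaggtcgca

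The following members had no such run within 10 bases of the annotated start. Runs farther away, such as cttcct in Rps13 and cctccc in Rpl23 below, were not counted. The split into members with and without the run thus depends on where RefSeq places the start. Rps13 (r = 0.91) and Rps3 (r = 0.89) followed the mean of the other members over the 11 arrays, whereas the kept probes of Rpl23 (r = −0.78) and Rpl41 (r = −0.80) moved opposite to it.
Rps13 (chr7:116334161-116334220, minus strand): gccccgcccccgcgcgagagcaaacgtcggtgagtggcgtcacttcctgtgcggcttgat
Rps3 (chr7:99483680-99483739, minus strand): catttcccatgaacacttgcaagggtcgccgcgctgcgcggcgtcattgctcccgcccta
Rpl23 (chr11:97782410-97782469, minus strand): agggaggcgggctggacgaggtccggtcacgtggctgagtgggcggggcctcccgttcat
Rpl41 (chr10:128549139-128549198, minus strand): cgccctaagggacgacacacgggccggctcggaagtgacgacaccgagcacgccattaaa

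Among the tested members, the correlation with the mean of the other members had a median of 0.70 in the 24 with the run (−0.56 to 0.96) and of 0.72 in the 25 without it (−0.80 to 0.91), and these medians were close. In the whole window of 300 bases, searched on both strands, the ETS-type letters CCGGAAG were present in 23 of 54 members (42.6%) and in 12.9% of coding genes. The E-box CACGTG, the letters bound by MYC, was present in 6 members (11.1%) and in 8.91% of coding genes, and TATAAA was present in 6 members (11.1%) and in 14.8% of coding genes. The letters CTTCCGG, which are CCGGAAG on the other strand, can share bases with a run of C and T, so both can be counted on the same bases. These matches describe the sequence and are not evidence of binding.

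Sirt6 itself was measured first as a check of the labels. Its log2 intensity lay between 7.64 and 7.88 in the PyMT tumours and between 8.19 and 8.64 in the PyMT/SIRT6 tumours, so the groups did not overlap. The difference was 0.61 ± 0.09 (SE) on the log2 scale, with a limma adjusted p of 0.0574 and an exact two-sided permutation p of 0.00216, the smallest that 6 against 5 arrays can give. The luminal keratins Krt8 (12.23 to 13.40) and Krt18 (11.04 to 12.00) were bright on every array, whereas the Epcam probe (7.15 to 7.35) lay at the dim end of the scale. Skeletal muscle markers were high in PyMT 5 and in PyMT/SIRT6 1, 4 and 5. The mean log2 intensity of these 12 markers ranged from 7.45 to 12.03 over the PyMT arrays and from 7.44 to 11.94 over the PyMT/SIRT6 arrays.

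Of the 65 members, 58 passed the filter that left out the dimmer 50% of features (mean log2 intensity below 7.31), 24 of the small subunit and 34 of the large. The others were Rpl14, Rpl17, Rpl39l, Rpl6, Rps20, Rps23 and Rpsa, whose probes had means from 7.18 to 7.31, at the dim end of the scale. Rpl39l is a paralog best known from testis, and the others encode core parts of every cytosolic ribosome, for which these probes give no usable level. Of the tested members, 39 had a mean above 13, 12 lay between 9 and 13 and 7 lay below 9. These positions belong to the probes and do not rank the genes by amount of mRNA.

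The rule asked which probes lie near the top of the scale, because a probe there has little room to move. The highest log2 intensity in the table was 15.29, and a mean within 1 log2 unit of it was called near the top. This held for 17 members: Rpl9, Rpl10a, Rpl27, Rpl35, Rpl37, Rpl38, Rpl41 and Rplp1 of the large subunit, and Rps2, Rps4x, Rps7, Rps9, Rps12, Rps14, Rps19, Rps24 and Rps29 of the small. Rps7, with a mean of 14.35, was just inside the limit and Rps26, at 14.29, just outside. Member probes made up 19 of the 79 probes of the whole array in this range, and 40 members lay in the upper 1% of all probes.

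Rplp1, a stalk protein, was the highest probe of the array in 7 of the 11 tumours and Rps9, which lies at the mRNA entry of the small subunit, in PyMT/SIRT6 4. Rplp1 had a log2 intensity of 15.29, 15.29, 15.26, 15.10, 15.29 and 15.29 in PyMT 1 to 6, and of 15.29, 15.29, 15.21, 15.18 and 15.29 in PyMT/SIRT6 1 to 5. The deposited arrays share their quantiles, so the probe that ranks first on an array takes nearly the same value on every array, and for Rplp1 these values report a rank. The SD over the 11 arrays had a median of 0.095 for the 17 members near the top, 0.19 for the other 41 tested members and 0.132 over all tested features. Rps29 had the lowest SD of all tested members (0.038).

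The genotypes were then compared for every tested member. None of the 58 passed the limma adjusted p threshold of 0.05, where 0.0136% of all 14726 tested features did. No member reached an unadjusted limma p under 0.05 (4.43% of all features), and in no member were the arrays of the 2 genotypes apart (0.489% of all features). The smallest unadjusted limma p of any member was 0.0552 and the smallest adjusted p was 0.983. The difference was within 0.25 on the log2 scale in 56 of 58 members. The 95% interval lay within ±0.5 in 52 members and within ±0.25 in 24. For most members a difference beyond 0.5 in probe signal thus lay outside the interval and a difference of 0.25 did not. Of the 24 members with an interval within ±0.25, 14 were among the 17 near the top, where a probe has little room to move. The intervals bound the signal of the kept probes and not the amount of mRNA.

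The signs of these differences leaned to higher values with extra Sirt6 on the 11 arrays. In all, 35 members were higher and 23 lower in PyMT/SIRT6 (60.3% higher, against 46.9% of all features), and the median difference was 0.04 for the members and −0.005 for all features. Small subunit members were higher in 17 of 24 (median 0.058) and large subunit members in 18 of 34 (median 0.023). Members near the top were higher in 4 of 17 (median −0.018), and the remaining members in 31 of 41 (median 0.074). The mean log2 intensity over the tested members averaged 12.85 ± 0.099 (SD) over the 6 PyMT arrays and 12.90 ± 0.141 (SD) over the 5 PyMT/SIRT6 arrays, a difference smaller than either spread. The members moved together across arrays, as described further on, so they are not separate measurements of the genotype.

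This lean depended on which tumours were compared. Without the 4 muscle-high arrays, a comparison added after the data were seen that leaves 5 PyMT arrays and PyMT/SIRT6 2 and 3, the median difference was −0.108 for the members and −0.002 for all features, and 17.2% of members were higher against 49.1% of all features. On those arrays 5 members (8.62%) had an unadjusted limma p under 0.05, all of them lower in PyMT/SIRT6 (Rplp2, Rps24, Rps16, Rpl3l and Rpl22l1), each with a limma adjusted p of 0.997. Of all features 2.96% did so in either direction, 1.26% on the lower side and 1.7% on the higher. Among the 5 members, Rpl3l (7.10 to 7.57 on the arrays kept) and Rpl22l1 (7.30 to 7.60 on the 11 arrays) lay near the dim end of the scale. The PyMT/SIRT6 arrays left out in that comparison (1, 4 and 5) had the highest member means of the 11 arrays (12.98, 13.02 and 12.98). PyMT/SIRT6 2, which was kept, had the lowest (12.68). With the muscle list as a covariate over all 11 arrays the median was 0.025 and 56.9% were higher. Leaving out PyMT/SIRT6 2 instead, the median was 0.086 and 74.1% were higher, against −0.01 and 45.5% of all features. There 4 members (6.9%), Rps4l, Rps3a1, Rpl7a and Rpl13a, had an unadjusted limma p under 0.05, all higher in PyMT/SIRT6 with a limma adjusted p of 0.597, where 8.33% of all features did so in either direction, 3.99% on the higher side and 4.34% on the lower. Macrophage markers were higher in PyMT/SIRT6 in 7 of 7 tested genes, with list means of 8.89 to 9.26 over PyMT arrays and 9.13 to 9.46 over PyMT/SIRT6 arrays, and basal and myoepithelial markers were lower in 6 of 6, with list means of 9.59 to 10.59 and 9.39 to 9.95. T and NK cell markers were higher in 5 of 5, with list means of 7.30 to 7.53 and 7.43 to 7.82, and with the lymphocyte lists as a covariate the members' median difference was 0.048. Fibroblast markers were higher in 6 of 6 (median 0.093), with list means of 8.05 to 8.77 and 8.23 to 8.98. Luminal markers were lower in 4 of 5 (median −0.091), with list means of 9.40 to 10.09 and 9.59 to 9.93. The list means take in every listed gene with a probe, tested or not. These were 7 luminal and 6 T and NK cell genes, of which 5 in each list were tested. No marker of these lists passed the limma adjusted threshold. At an unadjusted limma p under 0.05 were 3 of 5 T and NK cell markers and 2 of 6 basal and myoepithelial markers. So was 1 of 7 macrophage markers, but no fibroblast or luminal marker, against 4.43% of all features. The part of the macrophage, basal, fibroblast and luminal lists in the members' differences was not tested.

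**Figure D1:**
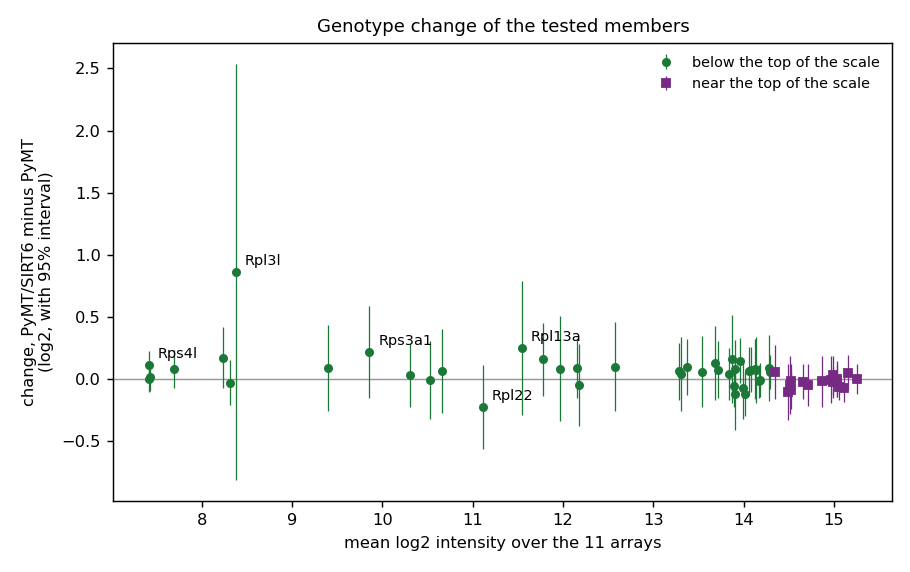
Difference between genotypes (PyMT/SIRT6 minus PyMT, log2 units, vertical) against mean log2 intensity over the 11 arrays (horizontal) for the 58 tested members, with 95% intervals; squares are the 17 members near the top of the scale. Most values lie close to 0, and Rpl3l (0.86) has by far the widest interval.

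Among members that were higher in PyMT/SIRT6, the largest difference was that of Rpl3l (0.86 ± 0.78, SE), a paralog of Rpl3 that belongs to striated muscle and is described further on. Next came Rpl13a, a large subunit protein that can leave the ribosome to silence inflammatory mRNAs. Its log2 intensity was 11.58, 10.69, 11.93, 11.43, 11.17 and 11.75 in PyMT 1 to 6 and 12.10, 10.82, 11.67, 12.00 and 11.79 in PyMT/SIRT6 1 to 5. PyMT 2 and PyMT/SIRT6 2 were the low arrays of their groups, the groups overlapped, and the difference was 0.25 ± 0.25 (95% interval −0.29 to 0.79). Rps3a1, a small subunit protein, ranged from 9.37 to 10.06 over the PyMT arrays and from 9.38 to 10.26 over the PyMT/SIRT6 arrays (0.22 ± 0.17). Rps19bp1, known as a regulator of the sirtuin SIRT1, differed by 0.17 ± 0.11 and Rps3, a small subunit protein at the mRNA entry, by 0.17 ± 0.16. None of these differences exceeded the spread between arrays. With each array left out, Rpl13a ran from 0.10 (without PyMT 2) to 0.46 (without PyMT/SIRT6 2), Rps3a1 from 0.14 to 0.37, Rps19bp1 from 0.10 to 0.23 and Rps3 from 0.08 to 0.30.

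The members with the largest differences toward lower values were Rpl22, Rplp2, Rpl28, Rps24 and Rps4x. Rpl22, a large subunit protein that is dispensable for translation in most cells and lost in some leukaemias, had values of 10.83, 11.44, 11.42, 11.17, 11.34 and 11.05 in PyMT 1 to 6. In PyMT/SIRT6 1 to 5 it had 11.21, 11.36, 10.62, 10.76 and 10.99, so PyMT/SIRT6 3 was the lowest of all arrays and the groups overlapped. The difference was −0.22 ± 0.16 (95% interval −0.56 to 0.11). Rplp2 differed by −0.12 ± 0.13, Rpl28 by −0.12 ± 0.08, Rps24, a protein mutated in some patients with Diamond-Blackfan anaemia, by −0.10 ± 0.10, and Rps4x by −0.09 ± 0.07. Without PyMT/SIRT6 2 both Rplp2 and Rps24 were at −0.03, and without PyMT/SIRT6 4 they were at −0.23 and −0.17. Over all arrays left out in turn, Rpl22 ran from −0.32 to −0.13, Rpl28 from −0.15 to −0.08 and Rps4x from −0.13 to −0.06. Rpl28 and Rps24 had the opposite sign on another probe, at 0.10 for Rpl28 and at 0.11 and 0.27 for Rps24.

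The smallest unadjusted p belonged to Rps4l, a paralog of Rps4x. It had log2 intensities of 7.33, 7.39, 7.42, 7.39, 7.27 and 7.39 in PyMT 1 to 6 and of 7.39, 7.34, 7.58, 7.64 and 7.41 in PyMT/SIRT6 1 to 5. PyMT/SIRT6 3 and 4 stood above all other arrays and the rest overlapped, close to the dim end of the scale. The difference was 0.11 ± 0.05 (95% interval −0.0029 to 0.22; limma adjusted p = 0.983). Rpl36al, an intronless paralog of Rpl36a, followed with 0.15 ± 0.08 (limma adjusted p = 0.983), and its values of 13.96 to 14.11 in PyMT/SIRT6 lay within the range of 13.70 to 14.14 in PyMT.

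The stalk proteins and Rps6 stand for functions of the working ribosome. Rplp0, which anchors the stalk to the large subunit, varied most of the stalk proteins, from 8.84 in PyMT 5 to 9.90 in PyMT 3, with a difference of 0.09 ± 0.16 between genotypes. Rplp2 ranged from 13.77 to 14.14 in PyMT and from 13.48 to 14.27 in PyMT/SIRT6, with PyMT/SIRT6 2 and 3 at 13.48 and 13.60 below every PyMT array. The difference of Rplp1 was −0.0002 ± 0.0565, at values fixed near the top of the scale. Rps6 had values of 13.33 to 13.90 over PyMT arrays and of 13.55 to 13.90 over PyMT/SIRT6 arrays (0.08 ± 0.11), and PyMT 5 was its lowest array. Rpl5 and Rpl11, which bind and restrain Mdm2 when ribosome assembly fails, had no named probe.

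Paralogs, taken here as members whose symbols end in l or l1, were set beside their parent genes where the parent had a probe, by the size of their differences only. Of 6 tested paralogs 5 were higher in PyMT/SIRT6, with a median difference of 0.092. Rpl22l1, which can take the place of Rpl22, differed by 0.02 ± 0.05 against −0.22 ± 0.16 for Rpl22. The Rpl22l1 probe (mean 7.42) lay near the dim end of the scale, so its small difference does not show a steady level. Rpl36al differed by 0.15 ± 0.08 against −0.05 ± 0.15 for Rpl36a. Rps27l, a p53 target, differed by 0.07 ± 0.12, and Rpl7l1 by −0.01 ± 0.14, with no parent gene among the members that have a named probe. Whether a paralog differed from its parent was not tested.

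Rpl3l was the most variable member, with an SD of 1.53 over the arrays. Its log2 intensity was 7.27, 7.57, 7.24, 7.45, 10.82 and 7.56 in PyMT 1 to 6 and 8.89, 7.23, 7.10, 10.03 and 11.00 in PyMT/SIRT6 1 to 5. It was high in exactly the 4 tumours whose skeletal muscle markers were high. The muscle list mean was 12.03 in PyMT 5 and 10.24, 11.01 and 11.94 in PyMT/SIRT6 1, 4 and 5, and lay between 7.44 and 8.50 on the other arrays. The parent gene Rpl3, which reaches toward the peptidyl transferase centre, stayed between 14.07 and 14.26 on all arrays. Its only probe, with a mean of 14.17, lay not far below the limit of 14.29 for near the top. A probe this bright may have little room to move, so the narrow range does not show that Rpl3 mRNA was steady. The 12 muscle markers were higher in PyMT/SIRT6 in 11 of 12, with a median difference of 1.185. The difference of Rpl3l was −0.26 without those 4 arrays and 0.01 with the muscle list as a covariate, and it was also 0.11 with the lymphocyte lists as a covariate and 1.54 with array weights. With each array left out it ran from 0.33 without PyMT/SIRT6 5 to 1.43 without PyMT 5.

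**Figure D2:**
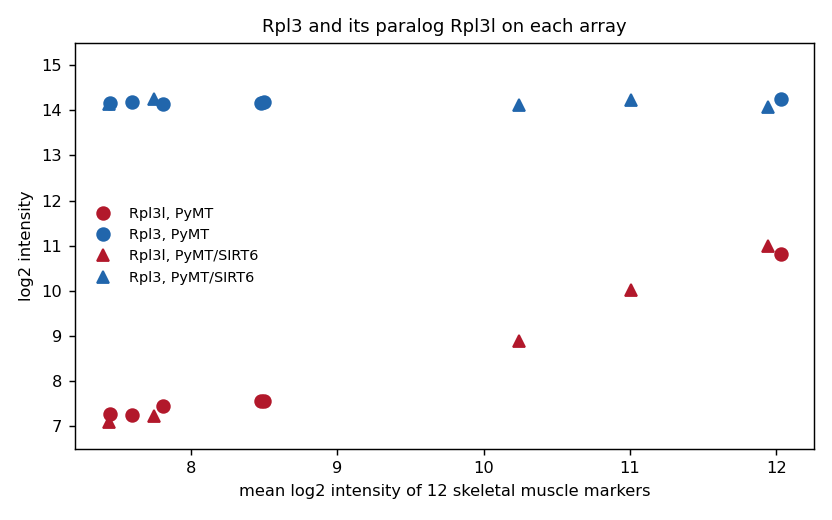
Log2 intensity of Rpl3l and of its parent gene Rpl3 on each array (vertical) against the mean log2 intensity of 12 skeletal muscle markers (horizontal); circles are PyMT and triangles PyMT/SIRT6 tumours. Rpl3l is between 7.10 and 7.57 on the 7 arrays with a muscle mean up to 8.50 and between 8.89 and 11.00 on the others, whereas Rpl3 lies between 14.07 and 14.26 throughout. The Rpl3 probe is bright and may have little room to move.

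The members shared a pattern across tumours. The mean over tested members was 12.82, 12.70, 12.96, 12.90, 12.80 and 12.94 in PyMT 1 to 6 and 12.98, 12.68, 12.84, 13.02 and 12.98 in PyMT/SIRT6 1 to 5. The lowest arrays were PyMT/SIRT6 2 and PyMT 2, followed by PyMT 5, so low arrays occurred in both groups. The 3 highest arrays were PyMT/SIRT6 4, 1 and 5, which were also muscle-high, followed by PyMT 3 and PyMT 6, which were not, while PyMT 5, also muscle-high, was among the lowest. PyMT/SIRT6 2 held the lowest value of 17 members, PyMT 2 of 15 and PyMT 5 of 12, which makes 44 of 58, while no other array held the lowest value of more than 4. PyMT/SIRT6 4 held the highest value of 14 members and PyMT/SIRT6 1 of 11.

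**Figure D3:**
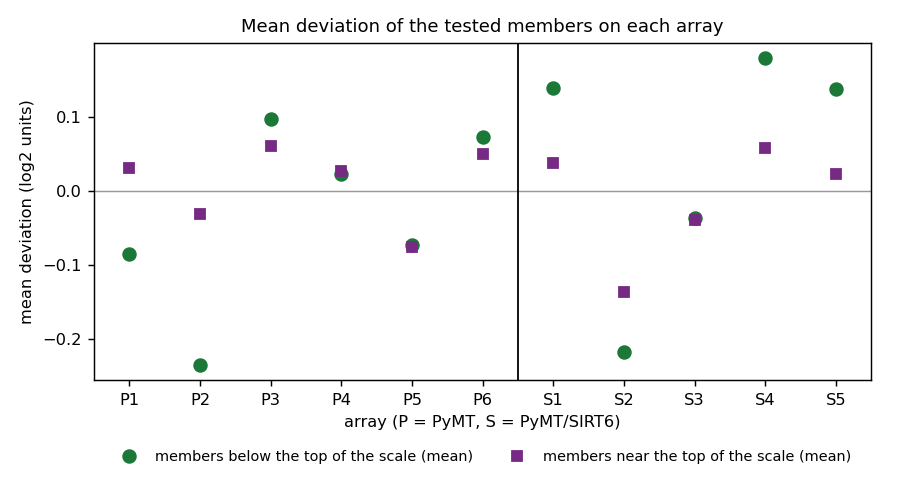
Mean deviation of the tested members from their own means (log2 units, vertical) on each array, for the 41 members below the top of the scale (circles) and the 17 near it (squares). PyMT 2 (−0.235) and PyMT/SIRT6 2 (−0.218) are lowest and PyMT/SIRT6 4 (0.179) highest for the members below the top. The members near the top span a narrower range, from −0.137 in PyMT/SIRT6 2 to 0.06 in PyMT 3. They do not follow on every array. In PyMT 1 they are at 0.03 where the others are at −0.086, and in PyMT 5 at −0.076 against −0.073.

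The median Pearson r over the 1653 pairs of tested members was 0.37 on the 11 arrays, with 72.2% of pairs above 0, and the median over all pairs of tested features was 0.00. All pairs share the same 11 arrays and scaling. The median was 0.47 for members below the top of the scale and 0.23 for those near it. Taken as deviations from the genotype means it was 0.39, and within the genotypes it was 0.35 over the 6 PyMT arrays and 0.57 over the 5 PyMT/SIRT6 arrays. Without PyMT 2 and PyMT/SIRT6 2 the median was 0.28, and without PyMT 5 as well it was 0.21. Those arrays were chosen as extremes of the members' own mean, so a lower r without them follows from the choice.

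Most members followed the mean of the others, and the kept probes of a few moved against it. Over the 11 arrays the r of a member with the mean of the other members was above 0 in 50 of 58, above 0.5 in 38 and above 0.8 in 17. Rpl12, a protein at the base of the stalk, followed the mean most closely (r = 0.96), then Rpl13a (0.93) and Rpl19, Rps7, Rps13 and Rps10 (each 0.91). Rpl12 had values of 14.01, 13.78, 14.35, 14.19, 13.96 and 14.25 in PyMT 1 to 6 and of 14.27, 13.89, 14.14, 14.31 and 14.27 in PyMT/SIRT6 1 to 5. Its lowest arrays were thus PyMT 2, PyMT/SIRT6 2 and PyMT 5, as for the mean. Rps25, a small subunit protein needed for some internal initiation sites, had a wide swing of the same kind, from 11.36 in PyMT 2 to 12.36 in PyMT 4 (SD 0.35).

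The 8 members with a negative r were Rpl41 (−0.80), Rpl23 (−0.78), Rps2 (−0.56), Rpl28 (−0.49), Rps29 (−0.45), Rpl22 (−0.40), Rpl3 (−0.39) and Rplp1 (−0.29). Of these, Rpl41, Rps2, Rps29 and Rplp1 lay near the top of the scale. Rpl3 (mean 14.17), Rpl28 (14.02) and Rpl23 (13.89) lay below that limit but in the upper 1% of all probes, and Rpl22 (11.11) did not. These r values belong to the kept probes. The other tested probe of Rpl28 followed the mean of the other members (r = 0.59), and that of Rps2 did not (r = −0.19). The probes of Rpl23 are described further on. Rpl41, a very short basic protein, was at 15.11, 15.11, 14.97, 14.94, 15.11 and 15.00 in PyMT 1 to 6 and at 15.04, 15.10, 15.09, 14.96 and 14.94 in PyMT/SIRT6 1 to 5. Its high arrays thus included PyMT 2, PyMT 5 and PyMT/SIRT6 2, where most members were low, within a narrow range.

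**Figure D4:**
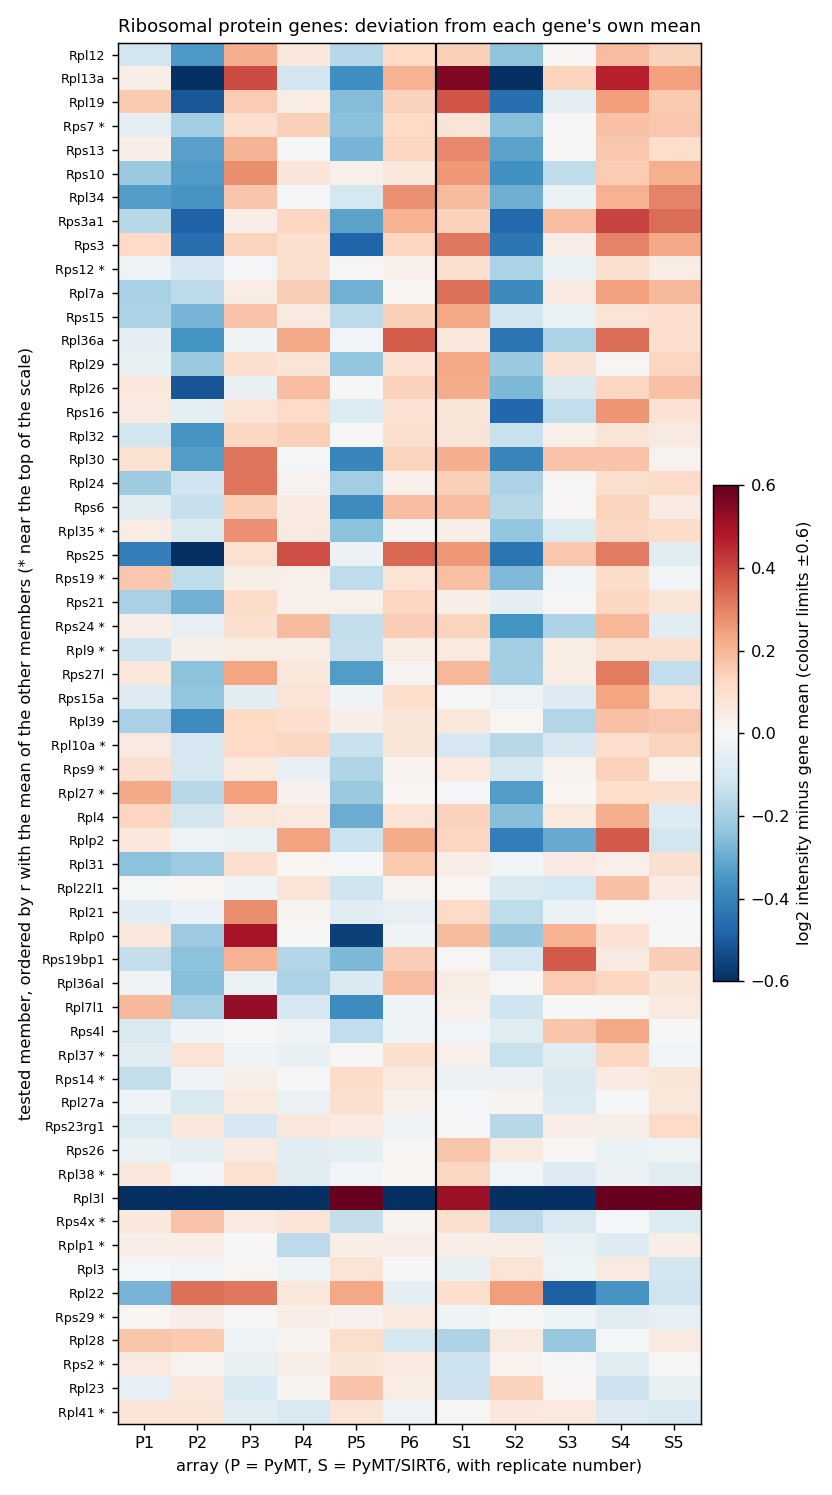
Deviation of each tested member from its own mean (log2 units, colour limits ±0.6) on each array, with members ordered from the highest to the lowest r with the mean of the other members and an asterisk for those near the top of the scale. PyMT 2, PyMT 5 and PyMT/SIRT6 2 are blue for most members in the upper part, Rpl3l runs past the colour limits, and the 8 members with a negative r lie at the bottom.

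Genes with several probes show how far the kept probe decides what is seen. In 22 members with more than 1 probe, 21 pairs of a kept probe with another tested probe of the gene could be made, over 16 genes. In the 8 pairs with the kept probe above 13 and the other between 8 and 13, the dimmer probe had the larger SD in 8 of 8 (median 0.38 against 0.13). The dimmer probes of these pairs followed the mean of the other members with r above 0 in 8 of 8 and above 0.8 in 6. Outside these pairs the dimmer probe had the smaller SD for Rpl30, Rpl7l1, Rps12 and a probe of Rpl21, and the larger SD in the rest. All probes share the same arrays, and a probe of a ribosomal protein gene can also capture mRNA of near-identical copies and processed pseudogenes, which was not tested.

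Rps24 had a kept probe with a mean of 14.49 (SD 0.18) and a dimmer probe at 9.79 (SD 0.57). The dimmer probe was at 9.93, 9.00, 10.42, 9.75, 8.96 and 9.94 in PyMT 1 to 6 and at 10.67, 9.13, 9.78, 10.28 and 9.85 in PyMT/SIRT6 1 to 5, and it differed by 0.27 ± 0.30 where the kept probe differed by −0.10 ± 0.10. Its low arrays were again PyMT 2, PyMT 5 and PyMT/SIRT6 2. Rpl31, a large subunit protein near the exit of the nascent chain, differed by 0.08 ± 0.08 on the kept probe and by 0.37 ± 0.19 and 0.34 ± 0.22 on the others, and the smallest unadjusted limma p among these was 0.068 (limma adjusted p = 0.978). Rpl38, known for its part in translation of Hox mRNAs, had an SD of 0.07 on the kept probe and of 0.39 on the dimmer probe.

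Rpl23, a large subunit protein that can bind Mdm2, had the widest disagreement. Its kept probe (mean 13.89) and a dimmer probe (mean 9.93) moved in opposite directions over the 11 arrays (r = −0.82), and the dimmer probe followed the mean of the other members (r = 0.81) where the kept probe opposed it (r = −0.78). A further bright probe, with a mean of 13.56, ranged from 12.60 to 14.41 and differed by 0.34 ± 0.31. By contrast, the Rps3 probes moved together (r = 0.99) with SDs of 0.30 and 0.53. The genes whose probes differed most in the genotype difference were Rpl23, Rps24, Rpl31, Rpl28 and Rpl27a.

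**Figure D5:**
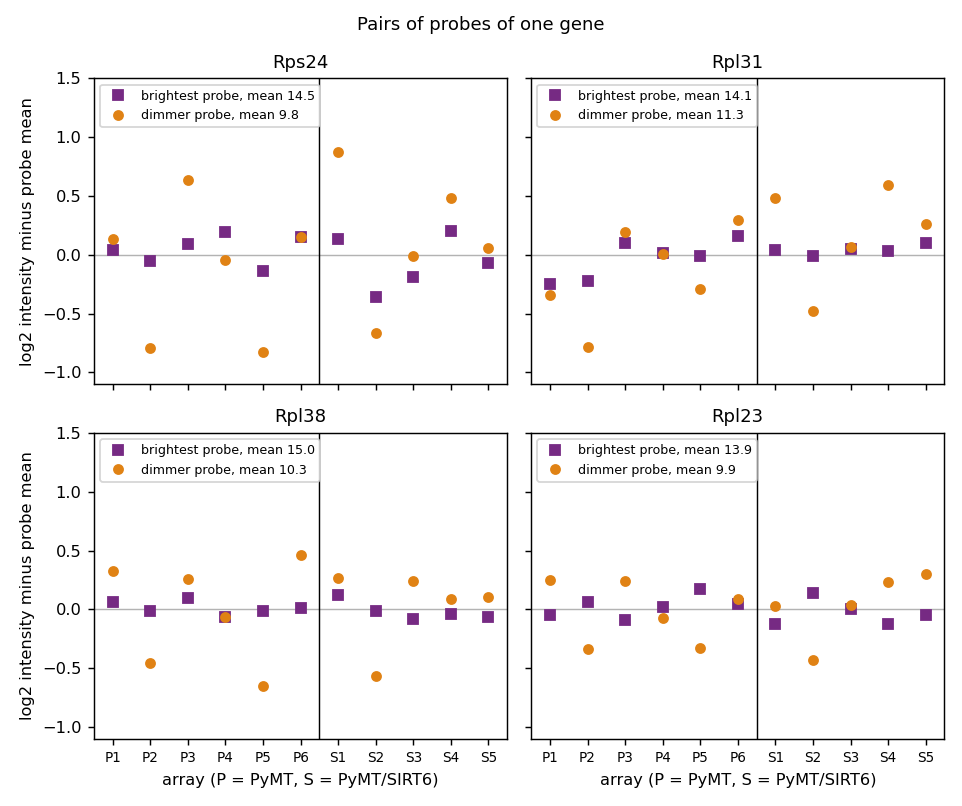
Log2 intensity minus the probe's own mean (vertical) on each array for the kept probe (squares) and a dimmer probe (circles) of Rps24, Rpl31, Rpl38 and Rpl23. The dimmer probes have the wider swings and are low in PyMT 2, PyMT 5 and PyMT/SIRT6 2, and the kept Rpl23 probe mirrors its dimmer partner.

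Genes that build, regulate or work with the ribosome were read from lists. No listed gene of ribosome biogenesis, translation factors, S6 kinases, mTOR and Myc, or mitochondrial ribosomal proteins passed the limma adjusted threshold. At an unadjusted limma p under 0.05 were 1 of 46 ribosome biogenesis genes (Efl1), 1 of 30 translation factors (Eif4b) and 1 of 72 mitochondrial ribosomal proteins (Mrpl42), each share below the 4.43% of all features. Of 46 tested ribosome biogenesis genes 16 were higher and 30 lower in PyMT/SIRT6 (median −0.061). Efl1, a GTPase that frees the large subunit of Eif6, differed by −0.155 ± 0.069 (limma adjusted p = 0.983), and the nucleolar proteins Ncl and Npm1 by −0.13 ± 0.13 and −0.16 ± 0.16. Of 30 translation factors 7 were higher and 23 lower (median −0.059), among them Eif4b, a helicase cofactor and S6 kinase substrate (−0.152 ± 0.067, limma adjusted p = 0.983). On the 11 arrays these lists leaned lower where the ribosomal proteins leaned higher, and 46.9% of all features were higher. The lean of the ribosomal proteins reversed without the 4 muscle-high arrays (median −0.108). The difference between lists was not tested.

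In the list of S6 kinases, mTOR and Myc, 10 of 23 tested genes were higher and 13 lower (median −0.031). Larp1, the protein that binds the pyrimidine run, differed by −0.10 ± 0.05 (limma adjusted p = 0.983), and Myc by −0.09 ± 0.06. Both lay near the dim end of the scale, with values of 7.32 to 7.60 for Larp1 and of 7.36 to 7.67 for Myc. The kinase-like gene Rps6kl1 differed by 0.30 ± 0.18. Rps6kb1, the main S6 kinase, had no named probe.

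The mitochondrial ribosomal proteins, encoded in the nucleus and built into a separate ribosome, had 46 of 72 tested genes higher and 26 lower (median 0.038). Mrpl42 had the smallest unadjusted p of them (0.36 ± 0.14, limma adjusted p = 0.983). They also co-varied across arrays, with a median pairwise r of 0.60. In PyMT 2, PyMT 5 and PyMT/SIRT6 2, the arrays with the lowest mean of the cytosolic members, 59 of the 72 mitochondrial genes were below their own mean on all 3 arrays and 0 were above on all 3. Among the 58 cytosolic members these counts were 36 and 6, which describe the arrays and are no test, since the arrays were named from these members. Over all tested features 21.8% were below and 21.3% above on all 3. Ribosome biogenesis genes were below on all 3 in 15 of 46 and above in 10.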

How the data were processed

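Total RNA of each tumour was amplified to biotinylated cRNA for Illumina arrays, per the labels' protocols. The authors deposited linear probe intensities. Background treatment, normalization and software were not given in the sources used. Sorted values differed between the 11 arrays by at most 1.08%, with medians of 157.5 to 157.6 and values from 116.7 to 40180.3, so the arrays already shared their quantiles and were not scaled again. No background subtraction was visible, so a difference on a dim probe understates the difference in RNA. Depth does not apply to arrays, and their number limits the precision.

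Of 45281 probes 34885 had a single symbol in the platform annotation, 18 had several and 10378 none. Of the single-symbol probes 34807 matched the RefSeq gene table of GRCm38.p6, which changed 0 symbols. For each gene the probe with the highest mean was kept. Probes with no symbol or several symbols were features too, giving 29453 features. After log2 the lower 50% by mean were left out, leaving 14726. Genotypes, taken from the labels, were compared in R 4.3.3 with limma 3.58.1 (lmFit and eBayes with intensity trend, no covariate), with Benjamini-Hochberg adjustment over all 14726 features. Single values were compared by an exact permutation test over all assignments of the arrays to the genotypes. Summaries used Python 3.11.15, pandas 2.3.3 and scipy 1.17.1. The fit was also tested on simulated data.

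Members and lists were chosen with earlier results of these data known. Named members were the 5 with the largest difference in each direction, the 5 with the smallest unadjusted p, the 5 with the largest SD, the paralogs with their parent genes, all members near the top of the scale, the 5 genes whose probes disagreed most, the stalk proteins, Rpl5, Rpl11, Rps6 and every member that did not pass the filter. Members described for their correlation with the others, or as examples of probe pairs, were chosen after their values were seen. Listed genes named were up to 3 per list with the smallest unadjusted p, with Myc, Ncl, Fbl and Npm1, of which Fbl had no named probe. Alternatives were other filters, probes, centring, background subtraction by normexp and an added offset of 50, array weights, eBayes with robust estimation or with no trend, covariates (muscle or lymphocyte lists), and the omission of each array.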

Additional observations from a re-analysis of the deposited data

Results flagged for a closer look

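In 3 of 46 groups of values (23 quantities in each genotype) a single array lay far from the others of its genotype by Dixon's criterion, which chance gives in about 1 in 20 groups. Rpl3l was at 10.82 in PyMT 5, where the other PyMT arrays lay between 7.24 and 7.57, and PyMT 5 was also the PyMT array with the highest skeletal muscle list mean (12.03). Rpl3 was at 14.26 in PyMT 5, where the other PyMT arrays lay between 14.15 and 14.18. Rplp1 was at 15.10 in PyMT 4, where the other PyMT arrays lay between 15.26 and 15.29, at the top of the scale.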

How the results depend on the processing

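No paired analysis was possible because the replicate numbers follow the order of deposit only and pair no samples. No member passed the limma adjusted threshold under any alternative run. The features called over the whole array numbered 2, and they numbered 4 with the mean of a gene's probes, 6 with every probe tested separately, 4 with array weights, 1 to 3 with each array left out in turn, and 0 without the 4 muscle-high arrays (PyMT 5 and PyMT/SIRT6 1, 4 and 5), an alternative chosen after seeing the data. The members at an unadjusted limma p under 0.05 numbered 0, and they numbered 2 without a filter, 1 without the intensity trend, 3 with array weights, 0 to 4 with each array left out (4 without PyMT/SIRT6 2), and 5 without the 4 muscle-high arrays. Without those 4 arrays the members' median difference was −0.108 in place of 0.04. The share of members higher in PyMT/SIRT6 was 17.2% in place of 60.3%. In that fit Rpl3l (−0.26), Rpl13a (−0.23), Rps3a1 (−0.09) and Rps3 (−0.20) changed sign, and Rpl3l lay near the dim end of the scale. The 4 arrays left out were 1 of 6 PyMT and 3 of 5 PyMT/SIRT6 arrays, so fewer samples were compared. The PyMT/SIRT6 arrays left out (1, 4 and 5) had the highest member means of all arrays (12.98, 13.02 and 12.98). PyMT/SIRT6 2, which was kept, had the lowest (12.68). The cause of the change was not tested. Over the other alternatives run, leaving out single arrays included, the median stayed between 0.008 and 0.086 and the share between 53.4% and 77.8%. Rpl28 was at 0.10 on its other probe, and Rps24 at 0.08 with the mean of its probes and at 0.11 and 0.27 on its other probes. With near the top taken as the upper 1% of all probes, 40 members were counted in place of 17.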
